A study of Homo sapiens with 16 samples.

Results

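The genes of the cytosolic ribosomal proteins were followed in lung cancer cells that differed in line, culture and ZC3H12A genotype. Members were taken by symbol, as RPL or RPS with a number and an optional letter suffix, plus RPSA and the stalk proteins RPLP0, RPLP1 and RPLP2. RPS4Y1, the S6 kinases, pseudogenes and readthrough transcripts were left out. The rule gave 82 of the 18227 genes in the tables: 31 of the small subunit, 43 of the large subunit, 3 of the P stalk and 5 paralogues (RPL7L1, RPL22L1, RPL26L1, RPL39L and RPS27L). RPL3L and RPL10L, paralogues of RPL3 and RPL10, were not analysed here.

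The established cancer lines A549 and H2023 were sequenced, which both derive from non-small cell lung tumours, as wild type or carrying a ZC3H12A knockout. The product of ZC3H12A is Regnase-1, an endoribonuclease that cuts mRNAs bearing certain stem-loops. Cells were harvested after 3 days of normal culture or after 7 days of a stem cell enriched culture that the study calls oncosphere, so culture type and days in culture cannot be told apart. The 8 groups held 2 libraries each: A549 wild type, A549 knockout, H2023 wild type and H2023 knockout, each in normal and in oncosphere culture. The titles name 1 knockout clone for each line, so the edit and any other property of that clone cannot be told apart. The labels do not say whether the 2 libraries of a group came from separate cultures, so p-values measure only the spread between them, which may be technical.

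A ribosomal protein is a structural part of the small or the large subunit, and the subunits are built in the nucleolus from ribosomal RNA and imported proteins. Most vertebrate mRNAs of these proteins begin with a cytosine and a run of pyrimidines, the 5' terminal oligopyrimidine (TOP) tract. Through that tract the mTOR pathway and its effector LARP1 set the translation and the stability of the whole family together. RPL5 and RPL11, with the 5S ribosomal RNA, bind MDM2 and stabilise p53 when assembly is disturbed. The paralogues replace or accompany a canonical member and are expressed at lower and more variable levels.

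The tract can be seen at the annotated starts. RefSeq promoter sequences (GRCh38.p14) were found for 66 of the 82 members by symbol. In 47 of these 66 members (71.2%) an annotated start was a C followed by at least 4 further C or T, against 5.14% of the 27305 symbols with a sequence. Counted by start, the figures were 57.3% of 82 member starts and 4.07% of all 35116 starts of the same table. The windows below run from 10 bases before the start to the end of the first 20 transcribed bases, and capitals mark the tract. They are shown for 5 members that were higher in the A549 libraries labelled knockout, and for RPSA, which had the lowest culture difference among the members with a tract in wild type of both lines.
RPL28 (chr19:55385922-55385951, + strand): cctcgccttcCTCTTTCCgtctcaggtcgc
RPL31 (chr2:101002279-101002308, + strand): ccttcgcgctCTTCCTTTCCaacttggacg
RPL37A (chr2:216498834-216498863, + strand): gcgtctcttcCTTTCTgggctcggacctag
RPS9 (chr19:54200848-54200877, + strand): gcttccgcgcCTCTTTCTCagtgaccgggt
RPS6 (chr9:19380217-19380246, - strand): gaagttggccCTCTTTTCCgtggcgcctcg
RPSA (chr3:39406710-39406739, + strand): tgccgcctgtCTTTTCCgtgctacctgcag

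The paralogues are shown with their partners because their starts differ. RPL22L1 carried a tract as its partner RPL22 does, while RPS27L and RPL26L1 did not carry the tract of RPS27 and RPL26. RPL7L1 had none either.
RPL22L1 (chr3:170870176-170870205, - strand): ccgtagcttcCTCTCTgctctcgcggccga
RPL22 (chr1:6199576-6199605, - strand): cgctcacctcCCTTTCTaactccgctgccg
RPS27L (chr15:63157458-63157487, - strand): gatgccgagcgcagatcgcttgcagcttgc
RPS27 (chr1:153990752-153990781, + strand): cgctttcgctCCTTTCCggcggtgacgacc
RPL26L1 (chr5:172958719-172958748, + strand): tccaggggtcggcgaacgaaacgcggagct
RPL26 (chr17:8383174-8383203, - strand): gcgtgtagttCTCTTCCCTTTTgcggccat
RPL7L1 (chr6:42879606-42879635, + strand): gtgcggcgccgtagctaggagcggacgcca

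Other motifs were counted on both strands of 300 bases around each start. CGGAAG, the core that ETS factors bind, lay in 58.5% of member starts and 19.5% of all starts. CACGTG, the E-box that MYC binds, lay in 6.10% and 7.26%. TATAAA lay in 7.32% and 11.5%. These are matches of letters, and no binding was measured.

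The libraries were compared before the members were read. The tables give TPM, a transcript level corrected for length and scaled to a fixed sum within each library, which keeps no sequencing depth, so the depth of each library is unknown. Replicates correlated over all genes with r from 0.983 to 0.992. In 7 of the 8 groups most members were higher in replicate 1, with the median log2 difference between replicates reaching 0.31 in H2023 oncosphere wild type (79 of 82 members) and 0.30 in the H2023 oncosphere libraries labelled knockout (80 of 82). ZC3H12A mRNA was lower in the libraries labelled knockout in A549 normal culture only (log2 difference -0.80, adjusted p = 0.0294). It was 0.24, 0.54 and 1.43 higher in A549 oncosphere, H2023 normal and H2023 oncosphere culture, none past the threshold of an adjusted p of 0.05. The mRNA was thus not lower with the label in 3 of 4 comparisons, which checks the label only as far as the edit lowers the mRNA, and "labelled knockout" is used throughout. The epithelial keratins KRT8 and KRT18 reached 765 to 5982 and 666 to 4515 TPM, while KRT19 (0.29 to 798) and EPCAM (0.37 to 51.0) were near 0 in some libraries. PECAM1, an endothelial marker, reached at most 2.76 TPM and PDGFRB, of pericytes and fibroblasts, at most 0.65. COL1A1, also listed as a marker of other cell types, was higher, from 1.11 to 8.46 TPM.

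The 82 members together held between 8.32% and 17.5% of all TPM in a library. In A549 normal culture their share was 15.5% and 14.6% in the wild-type libraries and 15.8% ± 2.38 (SD, n = 2) in those labelled knockout. In A549 oncosphere culture it was 11.9% ± 0.126 and 13.5% ± 1.10. In H2023 it was 13.1% ± 1.27 and 13.6% ± 0.148 in normal culture and 10.1% ± 1.57 and 9.33% ± 1.42 in oncosphere culture, wild type and labelled knockout. Within each line and genotype both oncosphere libraries were below both normal-culture libraries, except in A549 labelled knockout, where the highest oncosphere library (14.3%) and the lowest normal-culture library (14.2%) overlapped. Over the same libraries the share of the 15 mitochondrially encoded genes ran from 10.3% to 18.7% in normal and from 19.5% to 25.6% in oncosphere culture. TPM is scaled to a fixed sum within a library, so the level of every gene is relative to these. With the mitochondrial genes left out of the total, the members held 17.5%, 18.8%, 14.7% and 15.4% in normal culture and 15.3%, 16.8%, 13.4% and 12.3% in oncosphere culture, in the order A549 wild type, A549 labelled knockout, H2023 wild type and H2023 labelled knockout.

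**Figure D1:**
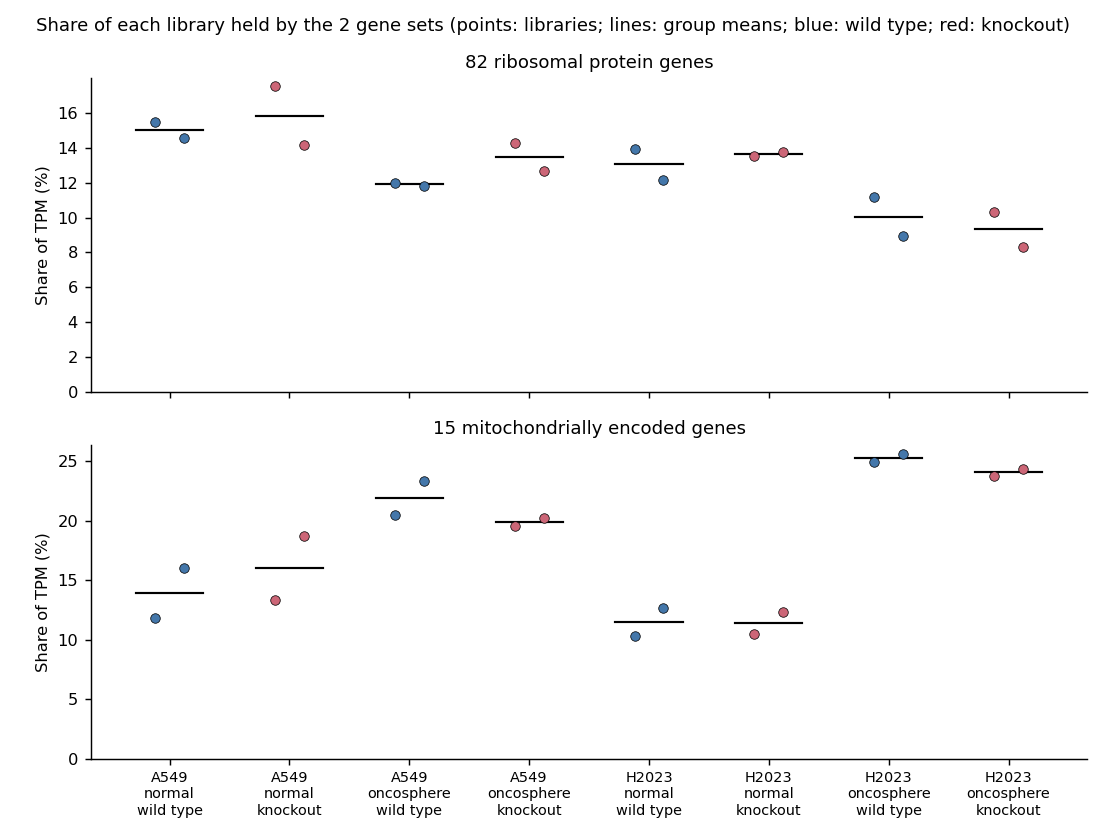
Share of TPM (%, vertical axis) of the 82 ribosomal protein genes (upper panel) and of the 15 mitochondrially encoded genes (lower panel) in each of the 16 libraries, by group; points are libraries and lines are group means. The upper values run from 8.32% to 17.5% and are lower in oncosphere than in normal culture of the same line and genotype, with an overlap in A549 labelled knockout (14.3% and 14.2%), while the lower values rise from at most 18.7% in normal culture to at least 19.5%.

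Levels varied within the family, although the ribosome holds its proteins in nearly equal numbers. Mean TPM over the 16 libraries ran from 440 to 3645 among the 77 members other than the paralogues, an 8.29-fold range, with medians of 1493 for the small subunit, 1480 for the large subunit and 1688 for the P stalk. RPL41, the smallest protein of the ribosome, stood highest with 3645 TPM, followed by RPS2 with 3560 and RPS19, mutated in Diamond-Blackfan anaemia, with 3035. The paralogues were lowest, with means from 39.6 TPM for RPL39L to 179 for RPS27L, and RPL22 was the lowest canonical member with 440. RPLP0, RPLP1 and RPLP2, which form the stalk that recruits translation factors, had means of 2735, 1548 and 1688 TPM. RPL5 and RPL11 had 1011 and 1057, and RPS27A, made as a fusion with ubiquitin, had 1402. The order of the members was kept more closely within a line than between lines: over the 82 members, group means correlated with r from 0.981 to 0.992 within a line and from 0.859 to 0.903 between lines, a description over genes that share libraries.

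Reads of ribosomal protein genes can also match their many processed pseudogenes. The 86 pseudogene rows with RPL or RPS symbols held between 0.483% and 1.24% of TPM in a library, highest in the same library as the members, replicate 1 of A549 normal labelled knockout. How reads were divided between a gene and its copies is not given in the sources used here, so the level of a single member carries that uncertainty.

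Oncosphere culture was compared with normal culture within each line and genotype, which asks what the stem cell enriched condition does to the family. The members were lower in oncosphere culture nearly throughout. In A549 wild type the log2 difference was negative for 80 of 82 members with a median of -0.36, against a median of -0.01 over all genes. The median was -0.20 in A549 labelled knockout (79 of 82 negative, all genes -0.01), -0.38 in H2023 wild type (82 of 82, all genes -0.18) and -0.55 in H2023 labelled knockout (82 of 82, all genes -0.12). Many expressed genes were negative too, above all in H2023. Of the 14823 genes with a mean of at least 1 TPM, 7950, 7682, 10474 and 9300 were negative in the 4 contrasts in this order. Their medians were -0.06, -0.02, -0.24 and -0.17. In 78 members the value was negative in all 4 contrasts, and no member rose past the threshold in any of them.

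By limma, 24 members fell in A549 wild type, where 21.6% of all genes fell. In A549 labelled knockout 6 fell, where 9.87% of all genes did. In H2023 wild type 15 fell, where 17.4% of all genes did, and in H2023 labelled knockout 34 fell, where 19.2% did. Both oncosphere libraries lay below both normal-culture libraries for 77, 39, 59 and 78 members in the same order, where 37.5%, 32.0%, 46.1% and 42.9% of all genes were so placed. In A549 labelled knockout and H2023 wild type the share of members called was near that of all genes, and in this fit it was above it in the other 2 contrasts. In A549 wild type that excess depended on the scaling and on single libraries, as given below.

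The members shared a fall more than an order, and the extremes recurred. RPL39L, RPL7L1, RPL21, RPL22 and RPS2 fell in all 4 contrasts, where 5.38% of all genes did, and 41 of the 82 members passed in none, where 67.9% of all genes did not. RPL39L, a paralogue of RPL39 best known from testis and from cancer cells, had 53.6 and 44.2 TPM in A549 normal wild type and 17.5 and 18.8 in A549 oncosphere wild type. Its log2 difference was -1.38 (SE 0.13, adjusted p = 0.000189) there, -1.05 (SE 0.13, adjusted p = 0.00157) in A549 labelled knockout, -0.84 (SE 0.09, adjusted p = 0.00391) in H2023 wild type and -1.33 (SE 0.09, adjusted p = 0.000583) in H2023 labelled knockout. The oncosphere libraries of RPL39L did not overlap the normal-culture libraries in either line.

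RPS2, a small subunit protein near the mRNA entry channel, had 4172 and 3544 TPM in A549 normal wild type against 2124 and 2118 in oncosphere culture. In H2023 wild type it had 5890 and 4769 against 3274 and 2820. It fell by 0.86, 0.64, 0.80 and 1.01 on the log2 scale in A549 wild type, A549 labelled knockout, H2023 wild type and H2023 labelled knockout. RPSA, which is also known as the 67-kDa laminin receptor, had 2297 and 1720 TPM in A549 normal wild type and 1021 and 1007 in oncosphere wild type, with no overlap. RPSA fell by 0.97 (adjusted p = 0.0122) in A549 wild type, by 0.80 (adjusted p = 0.0367) in H2023 wild type and by 0.96 in H2023 labelled knockout.

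Among the P stalk genes RPLP2 had 2289 and 2536 TPM in A549 normal wild type and 1833 and 1585 in oncosphere wild type, and it fell by 0.50 there, by 0.62 in H2023 wild type and by 0.87 in H2023 labelled knockout. RPLP1 fell in A549 wild type and H2023 labelled knockout, by 0.49 in each. RPLP0, the core of the stalk, passed in no contrast. RPL5 fell in A549 wild type (-0.45) and H2023 labelled knockout (-0.65), and RPL11 in H2023 wild type (-0.50) and H2023 labelled knockout (-0.59). Medians over the 31 small subunit genes were -0.37, -0.18, -0.36 and -0.57 in the 4 contrasts and over the 43 large subunit genes -0.32, -0.20, -0.39 and -0.56.

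**Figure D2:**
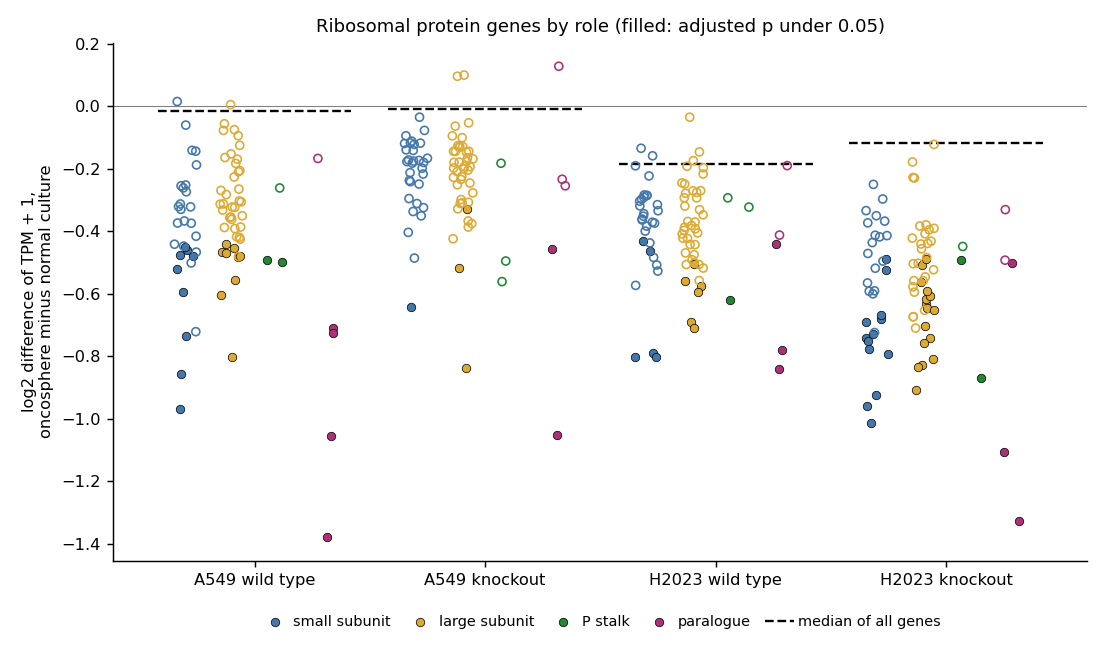
log2 difference of TPM + 1 between oncosphere and normal culture (vertical axis) for each of the 82 members, by contrast and role; filled points passed an adjusted p of 0.05 in limma and dashed lines are medians over all 18227 genes. Nearly all points lie below 0, the lowest being the paralogue RPL39L in each contrast, at -1.38, -1.05, -0.84 and -1.33.

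The size of the fall depended on the scaling. With the 15 mitochondrial genes left out of the total, 15, 5, 1 and 14 members fell in A549 wild type, A549 labelled knockout, H2023 wild type and H2023 labelled knockout, where 16.9%, 8.23%, 7.01% and 10.8% of all genes fell, and the medians were -0.22, -0.13, -0.13 and -0.33. The share of members called was then near that of all genes in A549, below it in H2023 wild type and above it in H2023 labelled knockout. Leaving out a library changed the counts as well. In A549 wild type 6 to 13 members fell without 1 of its 4 libraries, in A549 labelled knockout 1 to 8, in H2023 wild type 1 to 11 and in H2023 labelled knockout 6 to 27. The same fits called 14.1% to 18.4%, 4.75% to 6.11% and 7.42% to 11.3% of all genes lower in the first 3 contrasts, and 1455 to 2186 of the 18227 genes in H2023 labelled knockout. In A549 wild type the range of the share of members called thus lay lower than that of all genes, with an overlap. The lowest counts came without normal-culture wild type replicate 1 in both lines, in A549 labelled knockout without normal-culture replicate 1 or either oncosphere library, and without either normal-culture library in H2023 labelled knockout. Every member median stayed negative in these fits.

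Across members the culture differences resembled each other in the 2 lines, whose libraries are separate: r was 0.504 between A549 and H2023 wild type and 0.559 between the libraries labelled knockout, over 82 members. Within a line it was 0.575 between wild type and labelled knockout in A549 and 0.791 in H2023. The tract at the start was set beside these values. The 47 members with a tract had culture medians of -0.32, -0.20, -0.37 and -0.59 and the 19 without had -0.39, -0.18, -0.44 and -0.51.

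Other genes of ribosome production were read beside the members. Of 46 genes of ribosome biogenesis, the nucleolar machinery that makes and assembles subunits, 40, 22, 32 and 37 fell in oncosphere culture in A549 wild type, A549 labelled knockout, H2023 wild type and H2023 labelled knockout, and none rose. Of all genes 21.6%, 9.87%, 17.4% and 19.2% fell in the same order. The medians of the biogenesis genes were -0.96, -0.36, -0.59 and -0.74, lower than the medians of the members in each contrast. NOP56, a core protein of box C/D particles that guide rRNA methylation, fell by 1.76, 0.89, 1.03 and 1.28. NPM1, the nucleolar chaperone nucleophosmin, fell by 1.32, 0.93, 0.80 and 1.29.

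Of 20 translation factors and ribosome partners with TOP mRNAs, 6, 5, 9 and 14 fell, where 21.6%, 9.87%, 17.4% and 19.2% of all genes fell. NAP1L1, a histone chaperone with a TOP mRNA, fell by 0.93, 0.60, 0.85 and 0.94. PABPC1, the poly(A)-binding protein, fell in 3 contrasts, by 0.68 in A549 labelled knockout and by 0.84 and 0.83 in H2023. TPT1, the translationally controlled tumour protein, was the exception that rose, by 0.45 in A549 wild type (adjusted p = 0.0466). Of 12 TOP host genes of small nucleolar RNAs 4, 4, 2 and 2 fell and none rose. Among the mRNAs of 78 mitochondrial ribosomal proteins, a separate family, 42, 8, 18 and 44 fell. The host genes in H2023 and the mitochondrial family in A549 labelled knockout were near the share of all genes.

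Of 22 measured regulators of the family 8, 3, 4 and 6 fell and 1, 1, 0 and 0 rose. Of all genes 21.6%, 9.87%, 17.4% and 19.2% fell, so the regulators were near that share in A549 labelled knockout and H2023 wild type. MYC, which drives transcription of ribosome genes, fell by 1.35 in A549 wild type (adjusted p = 0.00027), by 0.55 in A549 labelled knockout and by 0.78 in H2023 labelled knockout, and was at -0.66 in H2023 wild type (adjusted p = 0.0746). LARP1, which binds the TOP tract, fell by 0.66, 0.42, 0.52 and 0.57 in the 4 contrasts.

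The knockout comparison sets the libraries labelled knockout against wild type within a line and culture. In A549 few members differed, and those were higher in the libraries labelled knockout except RPL7L1. By limma 1 member rose and 1 fell in A549 normal culture, where 10.8% of all genes were called in either direction. In A549 oncosphere culture 3 rose and none fell, where 13.2% of all genes were called. The authors' deposited table called 5 higher and 1 lower in normal culture (22.1% of the genes with a deposited adjusted p) and 8 higher and 0 lower in oncosphere culture (20.7%). Medians over the members were 0.00 in normal and 0.14 in oncosphere culture, against -0.03 and 0.03 over all genes. Both libraries labelled knockout lay above both wild-type libraries for 11 members and below for 10 in normal culture, where 61.7% of all genes were separated in either direction, and for 43 and 2 in oncosphere culture, where 60.5% were.

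RPL28, a large subunit protein, had 1125 and 1167 TPM in A549 normal wild type and 2775 and 1979 in the libraries labelled knockout. The groups did not overlap, and both libraries labelled knockout were above every other library of the series. The log2 difference was 1.03 (SE 0.21, adjusted p = 0.0424), and 1.12 (adjusted p = 7.36e-09) in the authors' deposited table. RPL7L1, a paralogue of RPL7 with a role in assembly of the large subunit, had 90.8 and 79.5 TPM against 60.2 and 57.0. It fell by 0.53 (SE 0.11, adjusted p = 0.0419).

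RPL31 had 1418 and 1434 TPM in wild type and 2274 and 2060 in the libraries labelled knockout, a log2 difference of 0.60 (SE 0.16, adjusted p = 0.0693). RPL37A had 2022 and 1981 TPM against 3378 and 2713, also 0.60 (SE 0.20, adjusted p = 0.111). Neither passed by limma, and both rose in the authors' deposited table, by 0.65 and 0.66. Both are large subunit genes on the long arm of chromosome 2.

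In A549 oncosphere culture RPL37A had 1828 and 1747 TPM in wild type and 2954 and 2597 in the libraries labelled knockout, and rose by 0.63 (SE 0.14, adjusted p = 0.0473). RPS9, needed for decoding accuracy, had 839 and 803 TPM against 1321 and 1133 and rose by 0.58 (SE 0.13, adjusted p = 0.0459). RPS6, the ribosomal substrate of the S6 kinases, had 1633 and 1739 TPM against 2707 and 2366, with a log2 difference of 0.59 (SE 0.14, adjusted p = 0.0574) by limma and 0.55 (adjusted p = 0.00154) in the authors' deposited table. In each of these 3 genes the groups did not overlap.

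**Figure D3:**
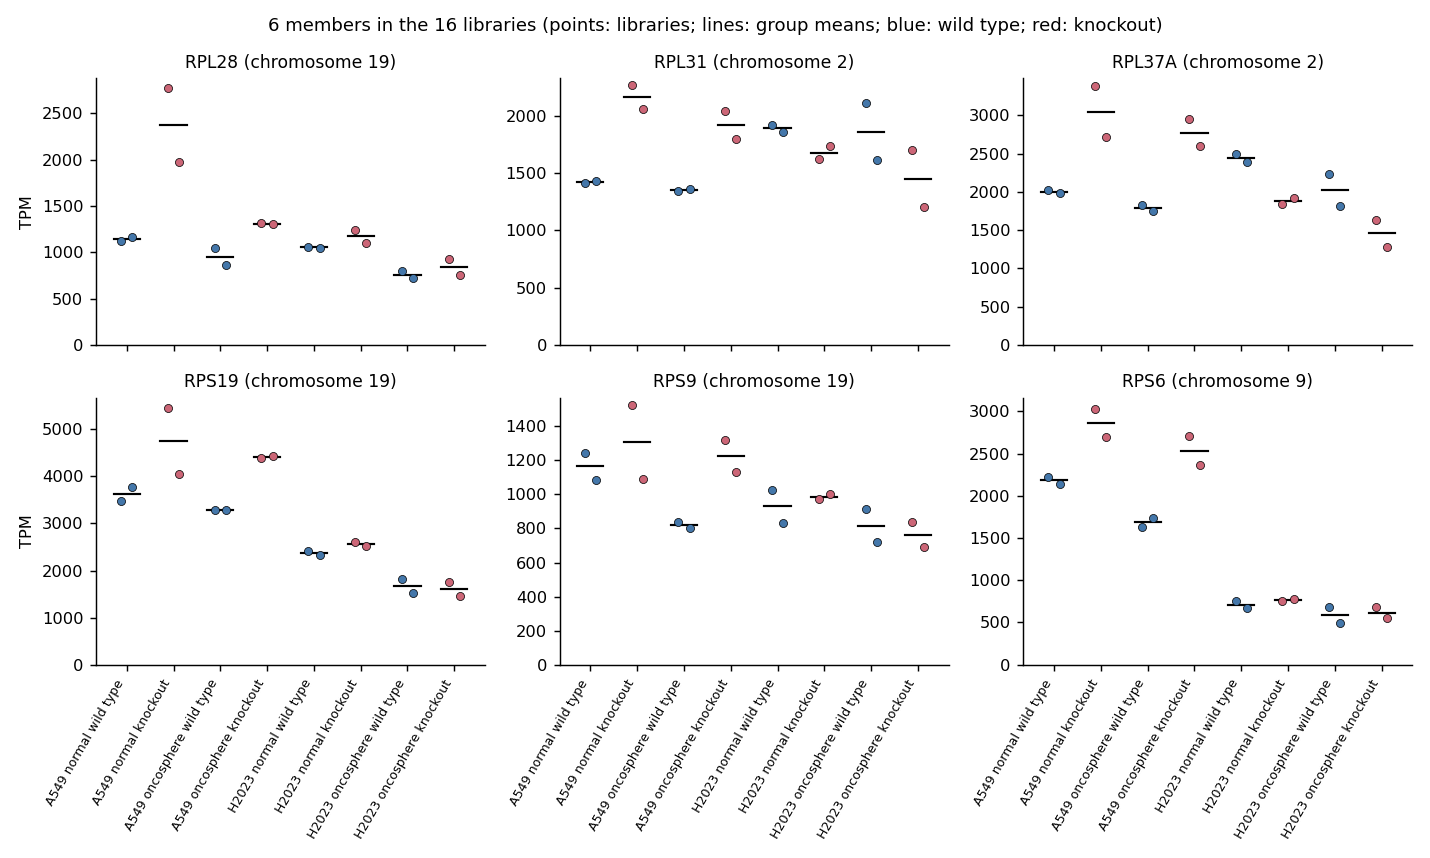
TPM (vertical axis, starting at 0) of 6 members in the 16 libraries, by group; points are libraries and lines are group means. In A549 oncosphere culture the libraries labelled knockout lie above wild type in all 6 panels, while RPL31 and RPL37A lie lower in the libraries labelled knockout of H2023 normal culture.

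With all 16 libraries in a single fit, limma called 3 members higher and 2 lower in normal culture, where 17.7% of all genes were called, and 6 higher in oncosphere culture, where 20.7% were. Without replicate 1 of the labelled knockout that fit called 1 higher and 1 lower in normal culture, where 10.4% of all genes were called, and none in oncosphere culture, where 15.2% were. The fits with 3 of the 4 libraries of a comparison called 0 of all genes in normal culture and 0 to 38 in oncosphere culture, so they say nothing on the calls of the members. The member median in normal culture was -0.12 without replicate 1 of the labelled knockout and 0.14 without replicate 2, so its sign followed a single library.

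In H2023 no member passed by limma in either culture, where 0.0% of all genes were called. At an unadjusted p under 0.05, 3 members were higher and 2 lower in normal culture, where 18.2% of all genes reached that p, and 0 and 2 in oncosphere culture, where 15.5% did. The authors' deposited table called 2 higher and 1 lower in normal culture (10.8% of genes) and none in oncosphere culture (5.07%). RPS10 and RPS12, both small subunit genes on chromosome 6, rose there by 0.38 and 0.34, and RPL37A fell by 0.36. RPS10 had 1698 and 1368 TPM in normal wild type and 1987 and 2027 in the libraries labelled knockout, without overlap. RPL37A had 2492 and 2394 against 1841 and 1921.

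Medians over the members were 0.11 in H2023 normal and -0.08 in H2023 oncosphere culture, against 0.01 and 0.06 over all genes. The libraries labelled knockout lay above wild type for 35 members and below for 10 in normal culture, where 50.6% of all genes were separated, and for 2 and 15 in oncosphere culture, where 47.5% were. The oncosphere median ran from -0.26 without wild type replicate 2 to 0.07 without wild type replicate 1. RPL39L (-0.49, adjusted p = 0.231), RPL37A (-0.48, adjusted p = 0.395), RPL21 (-0.46, adjusted p = 0.288) and RPL12 (-0.45, adjusted p = 0.325) had the largest differences there.

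In A549 normal culture 2 of the lists read beside the members, ribosome biogenesis and mitochondrial ribosomal proteins, moved differently from them. Of the 46 ribosome biogenesis genes 14 fell in A549 normal culture (median -0.38) and 6 rose in oncosphere culture (median 0.23) in the libraries labelled knockout, and none passed in H2023. Of 78 mitochondrial ribosomal protein mRNAs 16 fell in A549 normal culture (median -0.37) and 2 in oncosphere culture (median -0.04), and none passed in H2023. In either direction 10.8% and 13.2% of all genes were called in A549 and 0.0% in H2023. Both lists were above that share in A549 normal culture. In A549 oncosphere culture the biogenesis genes were near it and the mitochondrial family was below it. BOP1, NOLC1 and GRWD1, nucleolar assembly factors, fell by 0.86, 0.76 and 0.65 in normal culture, while NCL, the abundant nucleolar protein nucleolin, rose by 0.80 in oncosphere culture. Of the 20 TOP factors 2 rose in A549 oncosphere culture, EEF1B2 by 0.63 and NAP1L1 by 0.52, which is near the share of all genes. None passed in the other 3 comparisons. Among the regulators RHEB, the direct activator of mTOR complex 1, rose by 1.11 in A549 oncosphere culture (adjusted p = 0.00745). Epithelial markers moved with the label as well: of CDH1, EPCAM, KRT8, KRT18 and KRT19, 4 fell in A549 normal culture (KRT8 by 1.87, KRT18 by 2.09) and EPCAM and KRT19 fell in oncosphere culture. Their part in the differences of the members was not tested.

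Whether the knockout difference changed with culture was tested as an interaction. In A549 no member passed, where 6.65% of all genes did, and at an unadjusted p under 0.05 there were 3 higher and 0 lower, where 25.3% of all genes reached that p. RPL7L1 (0.60, adjusted p = 0.0712), RPL35 (0.59, adjusted p = 0.255) and RPS26 (0.57, adjusted p = 0.0703) had the largest values. In H2023 no member passed, where 0.0% of all genes did, and 0 were higher and 2 lower at an unadjusted p under 0.05, where 7.1% of all genes reached it. No gene passed in that fit, so it cannot tell members without an interaction from members with one. By sign 78 of 82 members were negative in H2023 (median -0.17), where 6143 of 14823 genes of at least 1 TPM were. In A549 65 were positive, where 8467 of these genes were, but the member median changed sign in fits without 1 library. In A549, in contrast to the members, 15 of the 46 ribosome biogenesis genes had a positive interaction past the threshold (median 0.65, members 0.14, all genes 0.05), among them NOLC1 with 1.01 and GRWD1 with 0.96. The 78 mitochondrial ribosomal protein mRNAs had a median of 0.29 there, with 73 positive and 4 past the threshold.

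The difference of the knockout differences between lines, H2023 minus A549, was tested over all 16 libraries. In normal culture RPL37A (-0.97, adjusted p = 0.0177) and RPL28 (-0.88, adjusted p = 0.0294) were lower and RPL7L1 was higher (0.77, adjusted p = 0.0102), where 12.1% of all genes were called. In oncosphere culture RPL37A (-1.11), RPL31 (-0.87), RPL26L1 (-0.64) and RPS27A (-0.62) were lower, where 16.3% of all genes were called. The value was negative there for 70 of 82 members (median -0.26) and for 7019 of 14823 genes of at least 1 TPM (median 0.03). In normal culture it was negative for 32 members (median 0.08) and 6640 of these genes (median 0.07). Within a line the value of RPL37A passed by limma in A549 oncosphere culture alone. Over the 82 members the knockout differences of the 2 cultures, measured in separate libraries, correlated with r of 0.548 in A549 and 0.726 in H2023. Between the lines r was -0.155 in normal and 0.076 in oncosphere culture.

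The lines were compared in wild type. In normal culture 8 members were higher and 23 lower in H2023 than in A549 wild type, where 26.6% of all genes were higher and 14.9% lower. In oncosphere culture 10 were higher and 31 lower, where 23.4% and 24.4% of all genes were. The member medians were -0.12 and -0.21 and the differences of the 2 cultures correlated with r of 0.941 over the 82 members. RPS6 had 2227 and 2142 TPM in A549 normal wild type and 755 and 668 in H2023, a log2 difference of -1.62 (SE 0.16, adjusted p = 1.31e-05). RPL10, a late-joining large subunit protein that is mutated in T-cell leukaemia, had 3264 and 2944 TPM against 1339 and 1272, a difference of -1.25, and in oncosphere culture 2912 and 2898 against 1091 and 906, a difference of -1.55 (adjusted p = 1.84e-05). No H2023 library reached the lowest A549 library for RPS6 or RPL10.

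Members of a chromosome often differed together between the lines. The 4 X-linked members RPL10, RPL36A, RPL39 and RPS4X were all lower in H2023 in both cultures, with medians of -1.01 and -1.07. So were RPL4, RPLP1 and RPS27L on chromosome 15, at -1.01, -1.02 and -1.75 in normal culture. On chromosome 9 RPS6, on the short arm, was lower, while RPL7A, RPL12 and RPL35, on the long arm, were at 0.55, 0.63 and 0.47 in normal culture, of which RPL7A and RPL12 passed. Median differences of the other expressed genes were -0.48 on X, -0.24 on chromosome 15 and 0.53 on chromosome 9 in normal culture. Members and other genes differed in sign elsewhere: on chromosome 19, which holds 12 members, the medians were -0.11 and 0.34, on chromosome 3 -0.12 and 0.21, on chromosome 17 -0.16 and 0.05 and on chromosome 22, with 1 member, -0.24 and 0.16. The signs also differed on chromosomes 2 (-0.02 and 0.30), 13 (-0.13 and 0.05), 16 (-0.02 and 0.29) and 18 (-0.10 and 0.30).

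This pattern was measured against position for each member. The measure is the median log2 difference of the 50 nearest genes on the same chromosome that are no members and have a mean of at least 1 TPM. These genes spanned between 1.01 and 27.4 Mb, with a median of 5.58 Mb. Over the 82 members the knockout difference correlated with that of the neighbourhood with r of 0.632 in A549 normal, 0.529 in A549 oncosphere, 0.743 in H2023 normal and 0.660 in H2023 oncosphere culture. The line differences did so with r of 0.706 and 0.700. For the culture differences r was 0.070, 0.134, 0.062 and 0.046 in A549 wild type, A549 labelled knockout, H2023 wild type and H2023 labelled knockout. These correlations describe genes and not replicates, since members close together share neighbours and all share the libraries.

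The same held when members and neighbours were measured in separate libraries. With the neighbours taken from the other culture, r was 0.600 and 0.499 for the A549 knockout differences in normal and oncosphere culture, 0.726 and 0.686 for those of H2023, and 0.705 and 0.711 for the line differences. With 20 or 100 neighbours r lay between 0.504 and 0.774 in the knockout comparisons. For 1237 other genes with a mean of at least 100 TPM, set against their own 50 neighbours, r was 0.186, 0.117, 0.423 and 0.374 in the knockout comparisons in the order above. For these genes it was 0.378 and 0.385 in the line contrasts of normal and oncosphere culture and 0.042 to 0.117 in the culture contrasts. Copy number was not measured, and the part of chromosome copies, of clone and of the edit in these differences was not tested.

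**Figure D4:**
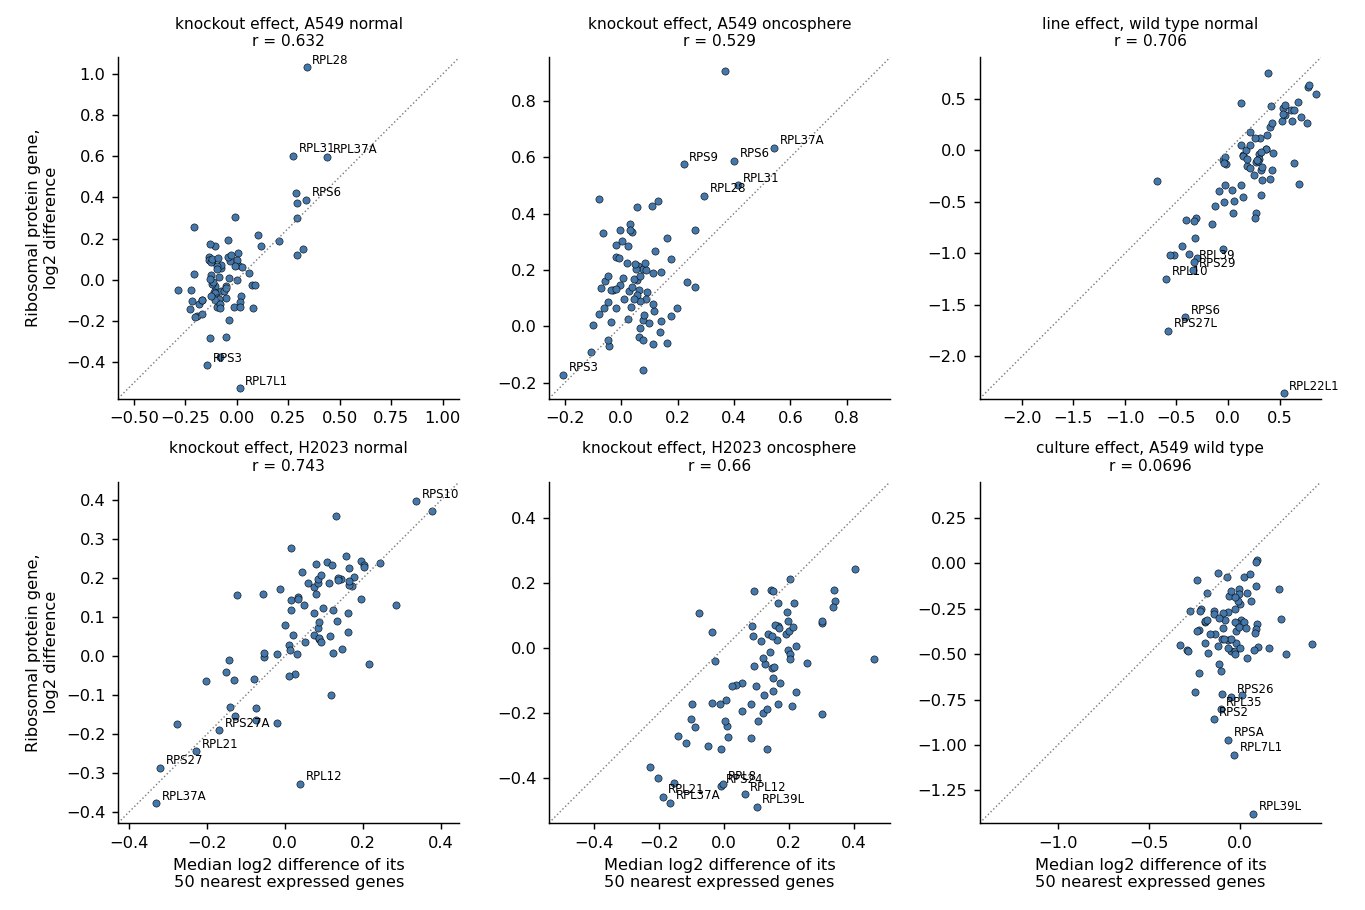
log2 difference of each of the 82 members (vertical axis) against the median log2 difference of its 50 nearest expressed genes (horizontal axis) in 6 comparisons; the dotted line is equality and 6 of the members farthest from the member median are named. Points rise with the neighbourhood in the 4 knockout panels (r of 0.632, 0.529, 0.743 and 0.660) and in the line panel (0.706), and not in the culture panel (0.070).

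In A549 the neighbours of RPL37A and RPL31 on chromosome 2 had medians of 0.44 and 0.27 in normal and 0.54 and 0.41 in oncosphere culture, with 43 and 40 of 50 above 0 in normal culture. Those of RPS6 on chromosome 9 had 0.34 and 0.40. On chromosome 19 the neighbours of RPL28 had 0.34 and 0.29. RPL28 stood 0.69 above its neighbours in normal culture, the farthest of all members there. RPL7L1 stood 0.54 below its neighbours in A549 normal culture.

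In H2023 normal culture several members at the ends of the distribution lay close to their surroundings. RPS10 and RPS18 on chromosome 6 were at 0.40 and 0.37 in normal culture, where their neighbours had 0.34 and 0.38. RPL37A was at -0.38 with neighbours at -0.33, RPS27 on chromosome 1 at -0.29 with -0.32, and RPL21 on chromosome 13 at -0.24 with -0.23. Others lay apart: RPL12 on chromosome 9 was at -0.33 with neighbours at 0.04. RPL17 was at 0.28 on chromosome 18, whose other expressed genes had a median of 0.06. In oncosphere culture the members lay below their neighbours by a median of 0.19, and followed them in part (r of 0.660). RPL37A and RPL21 were low on chromosomes 2 and 13, whose other expressed genes had medians of -0.20 and -0.11. RPL39L and RPL12 were low on chromosomes 3 and 9, whose other genes were at 0.15 and 0.05.

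The paralogues were compared with their partners as a share of the summed TPM of the pair. RPL22L1, the paralogue of RPL22, differed most between the lines in normal culture. It had 273 and 203 TPM in A549 normal wild type and 44.9 and 45.2 in H2023, a log2 difference of -2.36 (SE 0.19, adjusted p = 2.48e-06), and -1.82 in oncosphere culture. Its neighbours on chromosome 3 were at 0.54, so it ran opposite to its surroundings. RPL22 itself was higher in H2023, by 0.39 in normal culture. RPL22L1 made up 33.8% of the pair in A549 normal wild type and 6.93% in H2023, and group means stayed between 31.2% and 34.9% in A549 and between 6.26% and 8.84% in H2023 in the other groups.

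RPS27L, a p53-inducible paralogue of RPS27, had 274 and 275 TPM in A549 normal wild type and 70.6 and 92.4 in H2023. The difference was -1.75 (SE 0.14, adjusted p = 3.53e-06), and it was lower in oncosphere culture too (adjusted p = 9.74e-07). Its share of the pair was 7.27% and 2.89% in normal wild type. RPL7L1 ran the other way, with 90.8 and 79.5 TPM in A549 and 144 and 142 in H2023, higher by 0.75 in normal and 1.36 in oncosphere culture. Its share of the pair with RPL7 was 4.06% and 5.54% in normal wild type.

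RPL39L made up 1.64% of its pair in A549 normal wild type and 0.650% in oncosphere wild type, and the share was lower in oncosphere culture in H2023 too, at 3.02% in wild type, so RPL39L was lower relative to RPL39 as well as in TPM. RPL26L1, close in sequence to RPL26, made up 3.46% and 2.32% in A549 and 4.06% and 2.96% in H2023. It fell in oncosphere culture in A549 wild type (-0.71), H2023 wild type (-0.78) and H2023 labelled knockout (-1.11), and was at -0.23 in A549 labelled knockout. In that group it had 76.7 and 83.4 TPM, against 61.4 and 55.8 in A549 oncosphere wild type. RPL7L1 fell with culture in all 4 contrasts, by 1.05 in A549 wild type and by 0.46, 0.44 and 0.50 in the others.

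**Figure D5:**
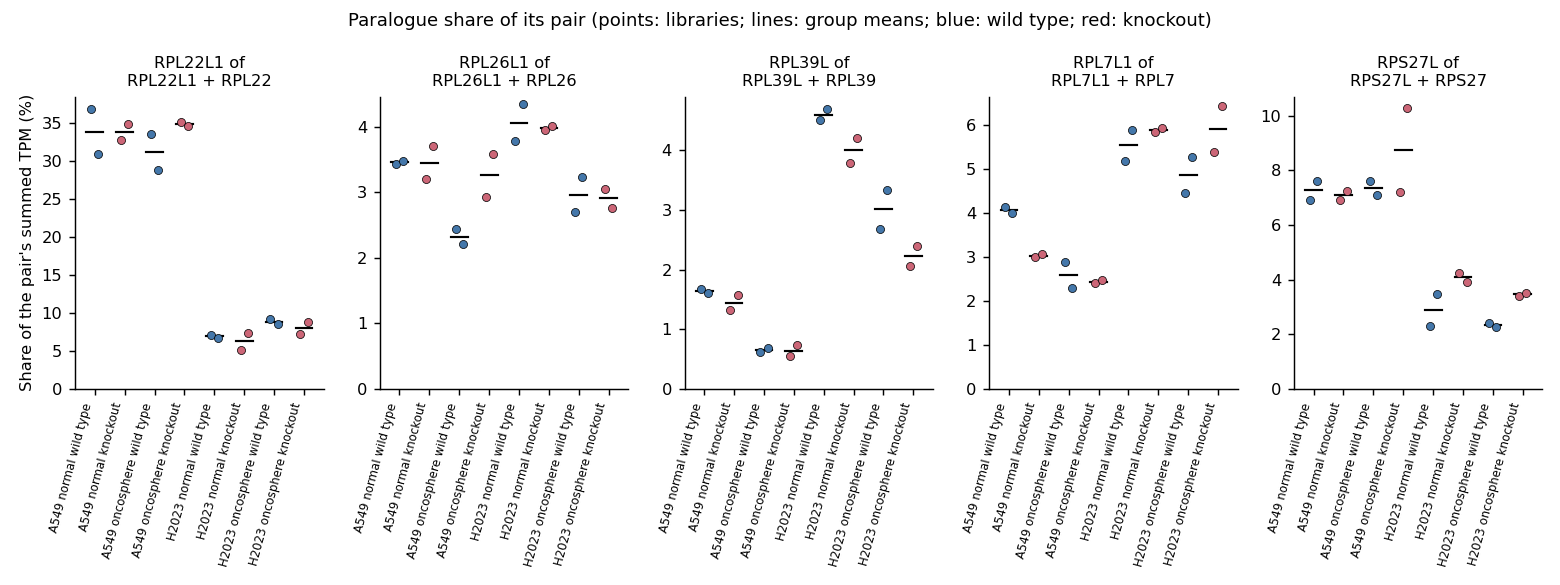
Share of each paralogue (%, vertical axis starting at 0, 1 panel per pair) in the summed TPM of the paralogue and its partner in the 16 libraries; points are libraries and lines are group means. RPL22L1 lies between 28.8% and 36.9% in A549 and between 5.11% and 9.21% in H2023, and the RPL39L share is lower in oncosphere culture in both lines.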

How the data were processed

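RNA from 16 libraries was sequenced after stranded mRNA library preparation, per the labels' protocols. The authors deposited 1 table for each line and culture with TPM for 4 libraries, and the submitters' processing notes name HISAT2, StringTie and GRCh38. Per the file headers, the tables also hold a mean signal over normalised counts, a log2 fold change with its error, a Wald statistic (a score, opposite in sign to the fold change in all 18361 rows and not used) and p-values raw and adjusted, under the column names that DESeq2 uses. The 119 identifiers that were repeated held identical values and were counted once, which left 18227 genes. Gene positions came from GENCODE 29.

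TPM is scaled within each library, so libraries of different tables were set side by side, and precision cannot be derived from depth. Differences were tested with limma 3.58.1 in R 4.3.3 on log2(TPM + 1), with its trend of variance against mean, two-sided, with Benjamini-Hochberg adjustment over all genes. Fold changes on this scale understate those of low genes. Knockout comparisons used their 4 libraries, culture and interaction contrasts the 8 libraries of a line, and line contrasts all 16. No filter on low values was used, and all 82 members entered every fit. The difference between lines in the knockout effect and the neighbourhood values were added after the data were seen. Other pseudocounts, filters, scalings, fits and left-out libraries were tried as alternatives.

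The members and the gene lists were chosen with earlier results of these data known. Named members were the 3 highest and 3 lowest by mean TPM, the 4 largest differences in each knockout comparison, the 3 largest in each other comparison, the paralogues with their partners, and a fixed group (the P stalk, RPSA, RPS6, RPS19, RPL5, RPL11, RPS27A and RPL41). A few results of single members are not reported here. Members outside this rule were chosen after their values were seen. The script was tested on simulated data.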

Additional observations from a re-analysis of the deposited data

Results flagged for a closer look

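The knockout difference, labelled knockout minus wild type, differed between the 2 lines for several members, and between the cultures of A549 for 1 member by the authors' deposited fold changes only, by a test of the difference itself. Values are H2023 minus A549 on the log2 scale unless said otherwise, and this comparison was added after the data were seen.

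In normal culture the limma values were -0.97 for RPL37A (adjusted p = 0.0177), -0.88 for RPL28 (adjusted p = 0.0294) and 0.77 for RPL7L1 (adjusted p = 0.0102). In the authors' deposited tables the fold changes differed by -1.02 for RPL37A, -0.99 for RPL28, -0.83 for RPL31, -0.50 for RPS27 (adjusted p = 0.0426) and 0.77 for RPL7L1.

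In oncosphere culture the limma values were -1.11 for RPL37A (adjusted p = 0.00631), -0.87 for RPL31 (adjusted p = 0.0304), -0.64 for RPL26L1 (adjusted p = 0.0324) and -0.62 for RPS27A (adjusted p = 0.0336). From the authors' deposited tables they were -1.17 for RPL37A, -0.92 for RPL31, -0.75 for RPL12, -0.67 for RPS2 and -0.65 for RPS27A. RPL37A passed in both cultures by both sources.

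Between the cultures of A549, oncosphere minus normal, the difference of the authors' deposited fold changes was -0.65 for RPL28 (adjusted p = 0.0458). By limma no member passed in that comparison.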

How the results depend on the processing

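Scaling moved the culture results. Counts of members in this section show how calls shifted with the setting. Where no share of all genes stands beside a count, it cannot be read as a result about the members. In A549 wild type 15 members were called without mitochondrial genes, 15 when scaled to genes other than these and the members, and 12 when centred on the library median, with medians of -0.22, -0.26 and -0.23. In H2023 wild type it was 1, 1 and 1 (medians -0.13, -0.15 and -0.11), and in H2023 labelled knockout 14, 14 and 14 (medians -0.33, -0.38 and -0.35). Without mitochondrial genes 16.9%, 7.01% and 10.8% of all genes fell in the same order. Centring gave the line comparison in normal culture a median of -0.28. Without mitochondrial genes the members' share was 17.5%, 18.8%, 14.7% and 15.4% in normal and 15.3%, 16.8%, 13.4% and 12.3% in oncosphere culture. With all 16 libraries in a single fit, 5, 6, 0 and 2 members were called in the knockout comparisons of A549 normal, A549 oncosphere, H2023 normal and H2023 oncosphere culture. In the culture contrasts of H2023 wild type and labelled knockout that fit called 29 and 53, and in the A549 interaction 1. It called 17.7% and 20.7% of all genes in the A549 knockout comparisons. The shares for its other comparisons are not given here, so a gain of the members cannot be told from a general gain in calls. The authors' deposited tables called 6, 8, 3 and 0 members, and differences of their fold changes 1 in the A549 interaction and 5 between lines in normal culture. In A549 oncosphere culture 6 were called among genes of at least 1 TPM and 1 without mitochondrial genes. With 4 libraries only, the line comparison in oncosphere culture called 26.

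The labels do not say that a replicate number marks a shared culture, and same-numbered libraries deviated together with r of 0.0766, 0.124, 0.0371 and 0.476 in the 4 knockout comparisons in the order above. In H2023 oncosphere culture, with the highest r, the members' share was lower in the labelled knockout within both numbers (11.2% to 10.3% and 8.94% to 8.32%), and the block called 0 members there. With the replicate number as a block 38 and 26 members were called in the culture contrasts of A549 and H2023 wild type, 1 in the A549 interaction, and 5 and 8 in the line differences in normal and oncosphere culture. The share of all genes called with the block is not given here, so these counts do not show a gain particular to the members.

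Leaving out 1 of the 4 libraries of a knockout comparison gave 0 calls in A549 normal and oncosphere culture, where those fits called at most 38 of all genes, while the fit of 16 libraries without replicate 1 of the labelled knockout gave 2 and 0. Leaving out 1 library gave a median of 0.015 to 0.19 in H2023 normal culture. The culture contrasts then called 6 to 13 members in A549 wild type (median -0.42 to -0.30), 1 to 8 in A549 labelled knockout, 1 to 11 in H2023 wild type and 6 to 27 in H2023 labelled knockout (median -0.68 to -0.40). The line comparison called 19 to 23 in normal and 25 to 34 in oncosphere culture. The interaction medians were -0.021 to 0.27 in A549 and -0.33 to -0.0076 in H2023, and the line differences called 1 to 3 in normal and 1 to 5 in oncosphere culture. The causes were not tested. Of the values of single members under an alternative, 533 kept their side of the threshold, 28 passed it, 69 no longer passed and 0 changed sign as calls. Depth is unknown, so no limit from counting can be given.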
